A study of Mus musculus with 5 samples.

Results

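The comparison described here was between CCK+ and CCK- cells that had been sorted from the small intestine epithelium of the same mice and measured by bulk RNA sequencing. Its members were the 6 CCK+ and the 6 CCK- libraries, 12 of the 13 libraries of the study, and each of 6 mice gave 1 library of each fraction. All mice were C57Bl/6J, 6 to 8 weeks old, and carried Cck-Cre with R26-LSL-tdTomato, so the controls held the same alleles as the CCK+ cells and were separated from them by the sort on red fluorescence. Mice A, B and F had been fasted overnight, and mice C, D and E had access to Ensure, a liquid meal, after the same fast (refed). Because Cre leaves a permanent mark, the label can be carried by any epithelial cell in which the Cck promoter was once active, and by its descendants. How completely such cells were labeled and sorted was not measured here. The sample titles call all 4 groups CCK+, and the fraction was taken from their cell type labels. What follows concerns gene programs other than hormones and nutrient receptors.

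Enteroendocrine cells (EECs) are the scattered hormone-producing cells of the gut lining. They store peptides in dense-core granules and release them by regulated, calcium-dependent exocytosis, as neurons release transmitters, and they arise from the same crypt stem cells as the enterocytes, which digest and absorb nutrients through a brush border and make up most of the epithelium. CCK cells are the EECs known for sensing fat and protein in the upper intestine.

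Cck, the gene that drove the label, lay between 14840 and 32590 normalized counts in the CCK+ libraries and between 27.6 and 86.0 in the CCK- libraries, which checks the fraction labels and is no finding. The normalized counts summed to 7061155 to 9868241 per CCK+ library and 9900561 to 11371114 per CCK- library, with 17183 to 18855 and 16656 to 17474 genes above 0. The CCK+ fraction was a mixture. The summed level of 16 enterocyte markers in it was 0.338 to 0.616 times that of the CCK- library of the same mouse, whereas the sum of 15 EEC markers was 33.9 to 126 times that in CCK-. In every CCK+ library the enterocyte sum (228300 to 542800) still exceeded the EEC sum (64450 to 239700). The sum of 18 markers of T and NK lymphocytes, which also live within the epithelium, was 5538 to 11740 in CCK+ and 605 to 1383 in CCK-, 6.82- to 13.1-fold higher within mice, with 17 of the 18 called higher. Sums of B and plasma cell, myeloid and mast cell markers were smaller and were 3.07- to 8.79-fold, 2.18- to 7.48-fold and 4.01- to 7.39-fold higher, whereas those of goblet, Paneth and tuft cells overlapped between the fractions. The enteric neuron sum was 16.1- to 44.5-fold higher, and 7 of the 13 markers were called higher. These were Snap25 (log2 difference 5.76), Nefm (5.37), Nefl (5.19), Ret (4.45), Tubb3 (1.93), Uchl1 (1.89) and Elavl4 (1.40). Snap25 and Ret had CCK+ medians of 2268 and 550 normalized counts and are also expressed by EECs. Vip, Slc18a3, Chat and Prph, which were not called, had CCK+ medians between 0 and 3.44, although Chat reached 181 in 1 library. The part of neurons in these values was not tested. Mouse B stood apart, with the lowest EEC and the highest enterocyte and lymphocyte sums of the CCK+ libraries. In bulk libraries fewer cells of a type and less RNA per cell cannot be told apart.

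**Figure D1:**
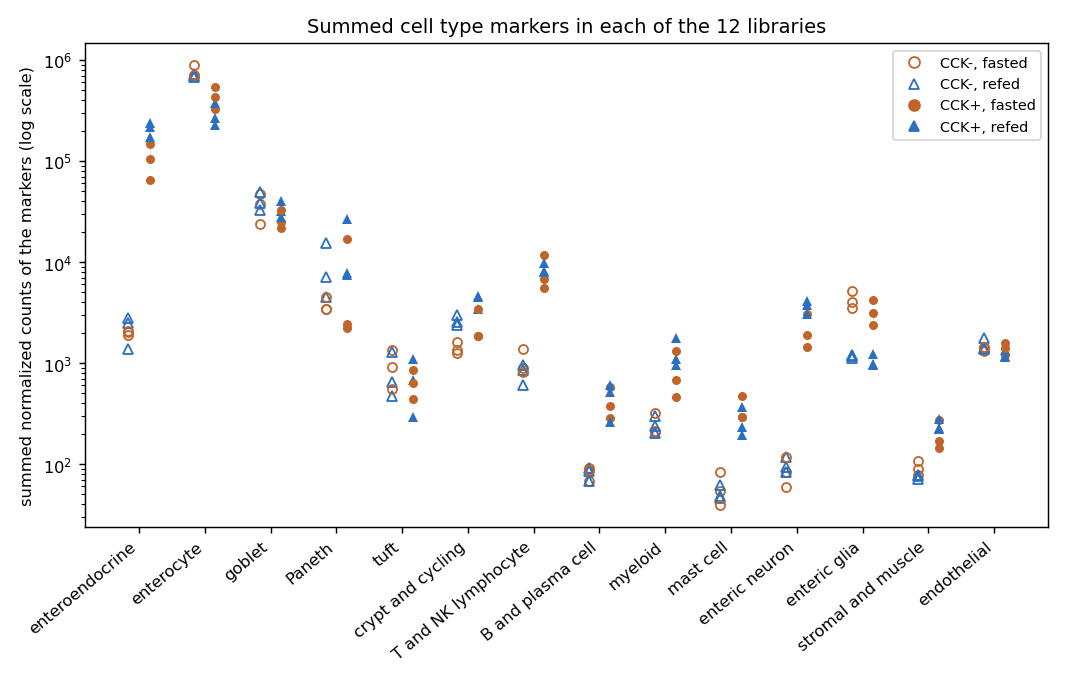
Summed normalized counts (log axis) of the markers of 14 cell types in every library, with open symbols for CCK- and filled symbols for CCK+, circles for fasted and triangles for refed mice. EEC markers separate the fractions most widely, enterocyte markers are lower in CCK+ but far from absent, and lymphocyte markers are higher in CCK+ in all 6 mice.

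Of 22042 genes tested, 4370 (19.8%) were higher and 3301 (15.0%) were lower in CCK+ at an adjusted p under 0.05 (limma on log2 of the normalized count plus 1, with mouse as a block and the average of the fasted and the refed effect). Among the 13517 genes with a mean of at least 10 normalized counts, 25.8% were higher and 23.5% lower. The median log2 difference over all genes was 0.09. The directions differed in size. Among called genes 887 were higher by more than 3 on the log2 scale, and 9 were lower by more than 3. When all libraries were brought to the same sum, 83.2% rather than 57.0% of the called genes were higher, and after quantile normalization 42.3% were. These scalings moved the median of all genes by 0.26 and -0.23, so a small difference has no fixed sign, and list medians below are to be read against that of all genes. Without mouse B, 4098 genes were higher and 2967 lower, and in no list of genes below did the number of higher members change by more than 7, nor that of lower members by more than 4.

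**Figure D2:**
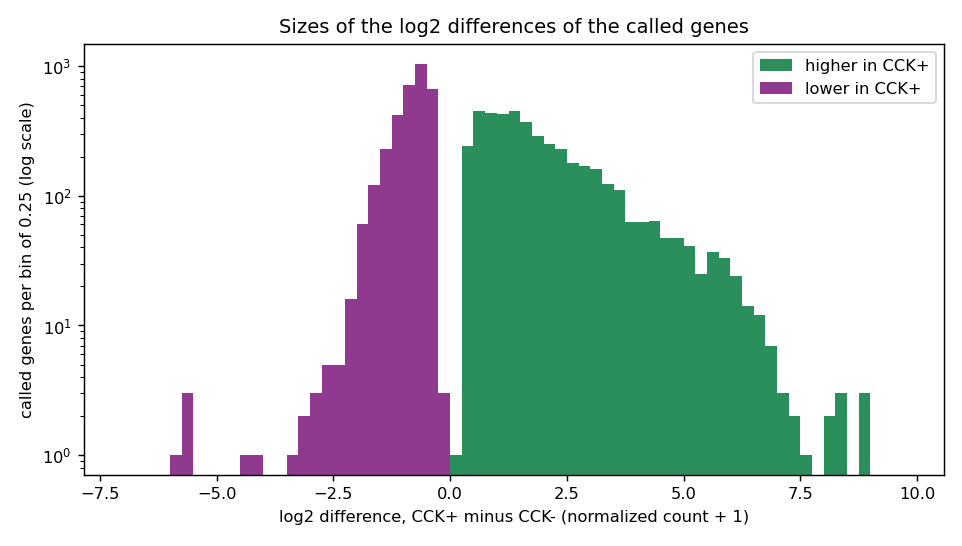
Number of called genes (log axis) by log2 difference, CCK+ minus CCK-, in bins of 0.25, coloured by direction. Higher genes reach beyond 8 on the log2 scale, whereas nearly all lower genes lie between 0 and -3.

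The machinery of the dense-core granule gave the highest median of the 28 gene lists examined. Of 24 granule genes, 20 were higher and 2 lower in CCK+, and the median log2 difference was 5.58, between 4.24 in mouse B and 5.62 in mouse D. Scg2 encodes secretogranin II, a granin packed into granules. It lay at 3059 to 6268 normalized counts in CCK+ (median 4900) and at 6.62 to 29.1 in CCK- (median 11.8), so the fractions were far apart in every mouse, and the log2 difference was 8.36 ± 0.28 (SE, 6 mice, adjusted p = 4.07e-08). Other members included the granins Chga (5.91) and Chgb (6.24), Vgf (6.32), the chaperone of prohormone convertase Scg5 (6.60) and the convertase inhibitor Pcsk1n (6.60). The prohormone processing enzymes followed in smaller steps, with Cpe at 5.57, Pcsk1 at 4.62, Pam at 2.30 and Pcsk2 at 1.58. Vwa5b2, at 442 to 1301 normalized counts in CCK+ and 4.43 to 15.5 in CCK-, differed by 6.34. The 2 lower members were Ccdc186 (-1.14), which acts in granule maturation, and Ica1l (-0.57).

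Promoter sequences are shown for granule genes with a complete cyclic AMP response element (CRE, TGACGTCA), the letters bound by CREB, and for xenobiotic genes with an HNF4-type element (CAAAGTCCA), since these 2 lists had the highest and the lowest median. Windows from 250 bases before to 50 after each RefSeq start site (GRCm38.p6) were searched on both strands. The CRE was in 3 of 25 windows of granule genes (21 of the 24 genes had a window) and in 1.79% of all 32851 windows. The shorter core TGACG, which every CRE contains, was in 15 of the 25 and in 20.8% of all. The HNF4-type letters were in 3 of 61 windows of the xenobiotic genes (48 of 52 genes), in 0 of the granule windows and in 0.475% of all. In xenobiotic windows the CRE was found in 1 and the core in 6. A letter match is not evidence of binding. The 150 bases that precede the start site of 5 of these genes are given in the direction of transcription, with the matched letters in capitals.
Scg2 (chr1:79440027-79440176, minus strand; CRE begins 68 bases before the start site): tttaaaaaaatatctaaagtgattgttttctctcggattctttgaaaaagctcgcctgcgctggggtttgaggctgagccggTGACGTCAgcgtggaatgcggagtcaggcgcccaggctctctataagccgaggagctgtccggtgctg
Chgb (chr2:132781492-132781641, plus strand; CRE begins 72 bases before): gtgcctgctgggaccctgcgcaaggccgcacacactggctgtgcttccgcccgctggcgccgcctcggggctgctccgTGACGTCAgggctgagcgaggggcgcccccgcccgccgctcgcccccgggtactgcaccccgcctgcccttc
Pcsk1 (chr13:75089707-75089856, plus strand; CRE begins 78 bases before): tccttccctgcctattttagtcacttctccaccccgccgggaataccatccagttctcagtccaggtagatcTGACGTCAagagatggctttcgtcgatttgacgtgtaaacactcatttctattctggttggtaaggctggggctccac
Cyp3a11 (chr5:145879855-145880004, minus strand; HNF4-type letters begin 109 bases before): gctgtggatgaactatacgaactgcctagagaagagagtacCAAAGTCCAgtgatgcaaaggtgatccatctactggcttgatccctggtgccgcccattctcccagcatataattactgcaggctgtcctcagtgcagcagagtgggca
Cyp2c65 (chr19:39060856-39061005, plus strand; HNF4-type letters begin 116 bases before): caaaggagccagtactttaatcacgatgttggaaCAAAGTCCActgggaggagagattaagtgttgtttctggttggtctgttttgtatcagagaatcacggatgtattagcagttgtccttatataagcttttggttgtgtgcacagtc

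Of the other motifs searched, the RFX-type motif GTTGCCAT was in 1 of 25 granule and 0 of 61 xenobiotic windows (1.35% of all), the E-box CAGATG in 3 and 15 (17.2% of all), and the E-box CAGCTG in 6 and 11 (16.3% of all).

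Genes that dock, prime and fuse vesicles were higher as a group. Of 45 exocytosis genes 33 were higher and no other was called, with a median log2 difference of 2.73 and mouse medians between 2.45 and 3.08. Quantile normalization gave 30 higher and 2 lower (median 2.44). Unc13a, which primes vesicles for fusion, lay at 175 to 694 normalized counts in CCK+ (median 464) and at 0.524 to 6.65 in CCK- (median 2.36), a log2 difference of 6.88 ± 0.34 (SE, 6 mice). The scaffold Pclo differed by 6.05, the vesicle glycoprotein Sv2c by 5.93 and Syt13, of the synaptotagmin family, by 5.87. The fusion complex was represented by Snap25 at 5.76, Stx1a at 4.61 and Vamp2 at 0.65, its clamps by the complexins Cplx1 (5.32) and Cplx2 (2.73), and vesicle pools by the synapsins Syn1 (5.09) and Syn2 (5.12). Of the calcium sensors, Syt7 differed by 4.77 and Syt1 by 2.70. Not every member was called: Nsf, which takes the spent complex apart, had a log2 difference of -0.25, and Rab27b and Sytl4, which tether granules, had -0.09 and -0.64.

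Endocrine transcription factors, which specify and maintain EECs, had the second highest median. Of 36 endocrine factors 28 were higher and 1 lower, with a median of 4.29 and mouse medians from 2.91 to 5.02. Etv1, an ETS factor, lay at 326 to 1415 normalized counts in CCK+ (median 1163) and at 0.591 to 4.75 in CCK- (median 2.31), which gave 8.12 ± 0.33. Nkx2-2, a homeodomain factor of endocrine lineages, had 148 to 758 in CCK+ and 0.437 to 7.69 in CCK- (7.05 ± 0.35). Isl1 (6.59), Rfx6 (6.56), Insm1 (6.52), Neurod1 (6.28), Myt1 (5.92) and Fev (5.76) followed. Neurog3, the transient factor that starts endocrine commitment, was not called (1.44). Lhx1, a LIM homeodomain factor outside these lists, had 74.0 to 325 normalized counts in CCK+ and 0 to 2.75 in CCK- (7.05 ± 0.43). The pioneer factors Foxa1 (3.18) and Foxa2 (3.16) were higher, and the 1 lower member was Onecut2 (-0.52), at 2335 to 2850 in CCK+ and 3042 to 4514 in CCK-, although its relative Onecut3 was higher by 5.12.

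Factors of the enterocyte differed far less. Of 39, 21 were lower and 7 higher, with a median of -0.40 that became 0.00 at the same library sum, where 8 were lower and 10 higher. Among the largest differences were those in Maf (-1.46), Pparg (-1.27) and Hnf4g (-1.20). Maf lay at 753 to 3230 normalized counts in CCK+ and 2963 to 5636 in CCK-, so its fractions overlapped across mice although it was lower within each of the 6. Hnf4a (-0.05), a master factor of absorptive cells, was not called. Srebf1, which drives lipid synthesis, was higher (1.25 ± 0.22), as were the inhibitors of basic helix-loop-helix factors Id3 (0.94), Id1 (0.88) and Id2 (0.72).

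Genes of electrical excitability were higher in CCK+. Of 43 voltage-gated channel genes 27 were higher and no other was called (median 2.26, mouse medians 1.46 to 3.22). After quantile normalization 23 were higher and 4 lower (median 1.61). Hcn4, the channel of pacemaker currents, lay at 217 to 497 normalized counts in CCK+ (median 375) against 0 to 5.96 in CCK- (median 3.50), a log2 difference of 6.53 ± 0.31. The potassium channel genes Kcnh6 (6.42) and Kcnb2 (6.12) and the T-type calcium channel gene Cacna1h (5.98) were the next. Calcium entry genes were broad, with the P/Q-type Cacna1a at 5.49, the L-type Cacna1c at 4.96 and Cacna1d at 2.37, the N-type Cacna1b at 2.13 and the accessory subunit Cacna2d1 at 5.47. Sodium channel genes were narrower, with Scn3a at 5.59, Scn8a at 2.79 and Scn3b at 3.16, whereas Scn9a (1.05) and Scn2a (1.23) were not called. Kcnk16, a background potassium channel known from pancreatic islets and not in that list, had 268 to 754 normalized counts in CCK+ (median 553) and 0 to 2.04 in CCK- (8.34 ± 0.43). Unc80, a subunit of the sodium leak channel complex, had 83.7 to 362 against 0 to 1.56 (7.12 ± 0.41).

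**Figure D3:**
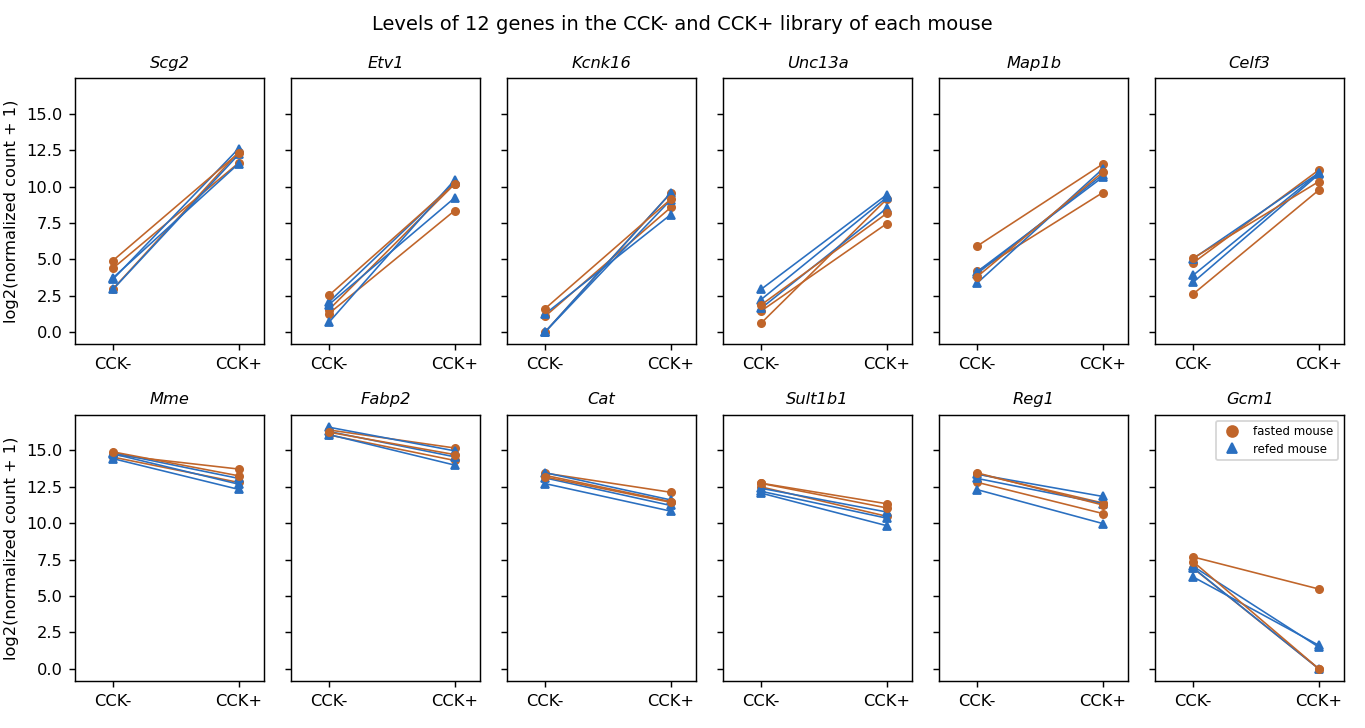
Level of 12 genes, log2 of the normalized count plus 1, in the CCK- and the CCK+ library of each mouse joined by a line, fasted mice in orange and refed mice in blue. The 6 genes of the upper row climb by over 5 on the log2 scale in every mouse, whereas those of the lower row, other than Gcm1, have log2 ratios from -2.33 to -0.99.

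Several of the genes with the largest differences belonged to none of the lists. Sphkap, an anchor of protein kinase A, had 253 to 722 normalized counts in CCK+ and 0 to 2.97 in CCK- (8.01 ± 0.33). Rbp4, the carrier of retinol in plasma, had 248 to 698 against 0 to 3.87 (7.54 ± 0.36). Cnr1, the cannabinoid receptor of neurons, had 91.4 to 325 in CCK+ and was listed at 0 in 5 of the 6 CCK- libraries (7.26 ± 0.41). Fabp5, a fatty acid binding protein, had 392 to 1125 against 2.57 to 16.4 (6.98 ± 0.22). Serpina1a, an antitrypsin, had 38.4 to 290 and was listed at 0 in 5 CCK- libraries (6.87 ± 0.39). Its near-identical Serpina1 copies may share its reads. In all 5 genes the lowest CCK+ library lay above the highest CCK- library. The fractions also did not overlap, in either direction, in 3453 of the 22042 genes tested. Among the 13517 genes with a mean of at least 10, this held for 3174. The 5 genes were picked for large differences of the same sign in all 6 mice, so their separation adds no support.

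Genes named for neurons were higher in part. Of 45 cytoskeleton and transport genes 25 were higher and 2 lower (median 1.56, mouse medians 1.10 to 2.47). Map1b, which binds axonal microtubules, lay at 769 to 2994 normalized counts against 9.28 to 58.9, a difference of 6.57 ± 0.25. The scaffold Mapk8ip2 (6.58), the axonal motor Kif1a (5.89) and the neurofilaments Nefm (5.37), Nefl (5.19) and Ina (4.84) were higher. Dcx (-0.78) and Kif21b (-0.32) were lower, the latter turning to 0.08 at the same library sum. Of 58 adhesion and guidance genes 18 were higher (31.0%) and 6 lower (10.3%), with a median of 0.47. Over all genes tested the shares were 19.8% and 15.0%. Over genes with a mean of at least 10, which 35 of the 58 reached, they were 25.8% and 23.5%. With quantile normalization 15 members were higher and 9 lower (median 0.11). The list held the receptors Nrp1 (6.13), Unc5a (5.95) and Plxnb1 (5.20), but Sema6a (-1.04), Lrrtm2 (-0.97) and Ncam1 (-0.96) were lower. Nfasc, which organizes axonal domains, had a median of 334 normalized counts in CCK+ and 5.49 in CCK- (5.92 ± 0.53), with mouse log2 ratios from 1.74 to 10.6.

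The list of neuronal splicing regulators was higher in its larger part, whereas the short epithelial list was mixed. Of 20 neuronal RNA-binding protein genes 12 were higher and 1 lower (median 1.17). Celf3 lay at 867 to 2257 normalized counts in CCK+ (median 1897) and 5.11 to 32.7 in CCK- (median 19.9), a difference of 6.53 ± 0.26. Nova2 (5.13), Khdrbs3 (4.30), Msi1 (4.22) and Rbfox3 (3.91) were higher, Srrm4, which switches on neuronal microexons, was not called (0.39), and Cpeb4 was lower (-0.61). Of the 6 genes listed as epithelial factors, 5 reached a mean of at least 10. In that list 4 were higher and 2 lower (median 0.55), but 3 and 2 without mouse B. Its mouse medians ran from -0.29 to 0.80 and lay above 0 in 4 of the 6 mice. Rbm24 (1.95), Esrp2 (1.09), Ptbp1 (0.62) and Esrp1 (0.48) were higher, with mouse log2 ratios of Esrp2 from -0.72 to 2.51. Rbm47 (-0.68) and A1cf (-0.63), the cofactors of apolipoprotein B editing in enterocytes, were lower.

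Signaling genes divided by member rather than by family. Of 58 genes for G proteins and cyclic AMP 24 were higher and 6 lower (median 0.84). The adenylyl cyclase Adcy1 lay at 143 to 573 normalized counts in CCK+ and 2.02 to 6.49 in CCK- (6.06 ± 0.31). Adcy2 (5.57), the inhibitory subunits Gnai1 (5.81) and Gnao1 (5.02), and the brake on G protein signaling Rgs4 (5.33) were higher. The stimulatory subunit Gnas (-0.09) and Gnaq (-0.06) were not called, and Gnai3 (-0.77), Pde9a (-0.74) and the taste subunit Gnat3 (-1.44) were lower. Some genes of this list, among them Gng2 and Pde4b, are also expressed by lymphocytes, whose part in these values was not tested. In calcium handling 16 of 37 genes were higher and 6 lower (median 0.41). The sodium-calcium exchanger Slc8a1 lay at 423 to 1004 against 2.15 to 12.8 (6.46 ± 0.24). Necab2 (3.47), Camkk2 (2.93) and Camk2a (2.36) were higher as well. S100g, the calbindin of absorptive cells (-1.37), and the calcium pumps Atp2b1 (-1.05) and Atp2b4 (-1.02) were lower, whereas Calm3 was higher (0.61).

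The primary cilium is a sensory projection built by intraflagellar transport. Of 51 cilium genes 21 were higher and 1 lower (median 0.49, mouse medians 0.13 to 0.88), and after quantile normalization 12 were higher and 4 lower. These genes were of low level. Ift57 lay at 26.0 to 116 normalized counts in CCK+ and 0 to 5.90 in CCK- (4.76 ± 0.46). Ahi1 (3.63 ± 0.54), Wdr35 (3.61 ± 0.63) and Cc2d2a (3.14 ± 0.36) were higher, as were members of the BBSome and its partners, Ttc8 (3.77), Bbs7 (2.31), Arl6 (1.99) and Bbs9 (1.41). The list was uneven. Ift88 (-0.02), Ift52 (-0.09) and Cep290 (-0.18) were not called, and Ift20 was lower (-0.98), at 621 to 872 against 1358 to 1962.

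**Figure D4:**
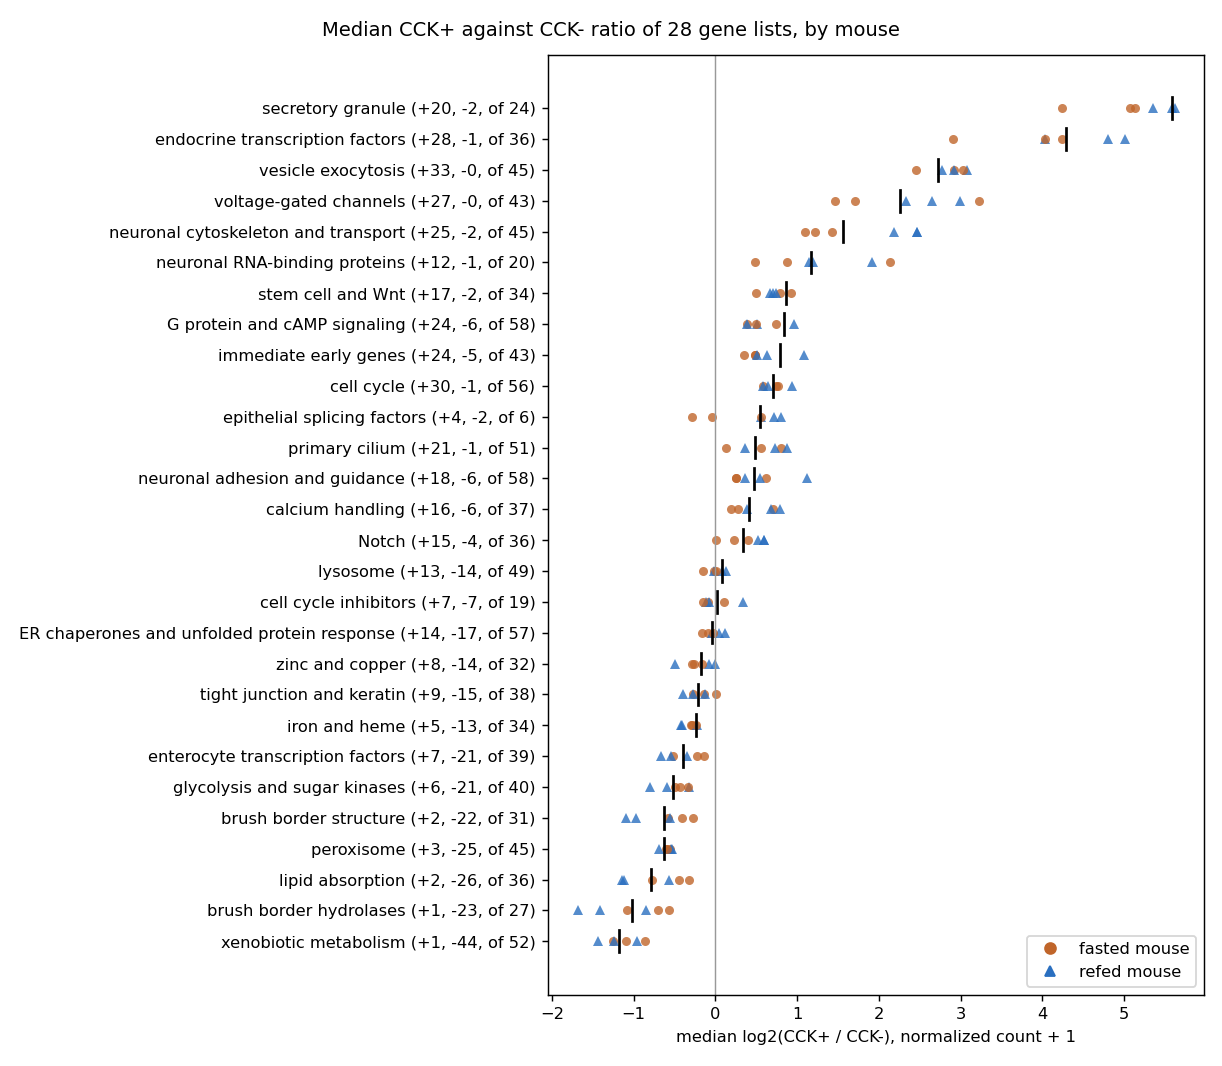
Median log2 ratio, CCK+ over CCK-, over the members of each of 28 gene lists, with 1 symbol a mouse (circles fasted, triangles refed) and a black bar for the median of the fitted differences; labels give the members higher and lower out of those measured. Granule, transcription factor, exocytosis and channel lists lie far to the right, the absorptive lists lie between 0 and -1.7, and the medians of enterocyte transcription factors, iron and heme, zinc and copper, tight junction and keratin, and ER lists turn positive at the same library sum, and that of the lysosome list turns negative after quantile normalization.

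Genes of the absorptive surface were lower. Of 31 structural genes of the brush border 22 were lower and 2 higher (median -0.63, mouse medians -1.10 to -0.27). This depended on scaling, since 14 were lower and 4 higher at the same library sum (median -0.23) and after quantile normalization (median -0.16). After quantile normalization the list median lay only 0.02 below that of all genes. Pls1, which bundles the actin of microvilli, lay at 4858 to 11210 normalized counts in CCK+ (median 6688) and 18280 to 22860 in CCK- (median 19450), a difference of -1.55 ± 0.11. Tmigd1 (-1.17), Anks4b (-1.06), Myo1a (-0.92) and Vil1 (-0.79) were lower, while the adaptors Ush1c (-0.09) and Espn (-0.08) were not called. The higher ones were the actin regulators Twf2 (2.32) and Fscn1 (1.17). Of 27 surface hydrolases 23 were lower (median -1.02). The endopeptidase Mme lay at 5138 to 13530 against 22270 to 30690 (-1.73 ± 0.12), the highest CCK+ value being that of mouse B. The disaccharidase Sis (-1.53), the vitamin carrier receptor Cubn (-1.48) and Dpp4 (-1.40), which cleaves incretin hormones, were lower. The 1 higher member was Alpl, tissue-nonspecific alkaline phosphatase, at 11.1 to 161 in CCK+ and listed at 0 in all 6 CCK- libraries, whereas the intestinal phosphatase Alpi was lower (-0.88).

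The same held for lipid uptake, peroxisomes and detoxification. Of 36 lipid absorption genes 26 were lower and 2 higher (median -0.79). Fabp2, the intestinal fatty acid binding protein, lay at 16330 to 36890 normalized counts in CCK+ and 68640 to 99200 in CCK- (-1.67 ± 0.13). Cd36 (-1.30), the ligase Acsl5 (-1.20), the triglyceride transfer protein Mttp (-1.01) and Apob (-0.70) were lower, Apoa1 (-0.38) was not called, and the colipase Clps (1.68) and the lipoprotein receptor Scarb1 (0.84) were higher. Of 45 peroxisome genes 25 were lower and 3 higher (median -0.63). At the same library sum 16 were lower and 8 higher (median -0.23), and after quantile normalization 28 and 2 (median -0.62). Catalase, Cat, lay at 1821 to 4478 against 6775 to 11420 (-1.76 ± 0.10). Amacr (-1.28) and Acot4 (-1.25) were lower. The ether lipid genes Far1 (2.89) and Gnpat (0.77) were higher with the import factor Pex26 (0.87), and Agps, of the same ether lipid route, was lower (-0.63).

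Xenobiotic metabolism had the lowest median of the lists. Of 52 genes 44 were lower and 1 higher, with a median of -1.18 and mouse medians from -1.44 to -0.87. The sulfotransferase Sult1b1 lay at 911 to 2592 normalized counts in CCK+ and 4308 to 6913 in CCK- (-1.81 ± 0.11). The glucuronosyltransferase Ugt2b5 (-1.81), the glutathione transferase Gsta4 (-1.81), the cytochrome Cyp3a25 (-1.85) and Cyp3a11 (-1.52), whose promoter is shown above, were lower, and Cyp2c65 was lower by a smaller amount (-0.88). Gstt1 was higher (0.63). Members of the Cyp, Ugt, Gst and Ces families have near-identical copies, and how reads were divided among those is uncertain.

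Among called genes with 1 sign in all 6 mice and a mean of at least 100 normalized counts in the higher fraction, Gcm1 had the lowest log2 difference. This transcription factor, known from the placenta, lay at 78.7 to 205 in the CCK- libraries. In CCK+ it was listed at 0 in mice A, C and F, was under 3 in D and E, and reached 43.7 in mouse B, a log2 difference of -5.61 ± 0.64 (adjusted p = 9.24e-05). The next 11 genes fell in a narrow band, from -2.03 to -1.83. They included Ugt1a2 (-2.03), which shares exons with the other Ugt1a genes, the lectins Reg1 (-1.99) and Clec2e (-1.92), the sugar phosphate carrier Slc37a2 (-1.96), Kbtbd11 (-1.90), the pyruvate carboxylase gene Pcx (-1.86), Lrrc19 (-1.86), Cyp3a25 (-1.85), the carbonic anhydrase Car13 (-1.85) and Trim30d (-1.83). Reg1 had 1008 to 3669 normalized counts in CCK+ and 5088 to 11290 in CCK-.

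Genes of metal transport went both ways. Among all genes with a mean of at least 10, 23.5% were lower and 25.8% higher, so the higher shares of both lists below did not exceed that of all such genes. In iron and heme 13 of 34 genes were lower (38.2%) and 5 higher (14.7%). The median was -0.24, but 0.11 at the same library sum, where 9 were lower and 10 higher. The exporter ferroportin, Slc40a1, lay at 83.6 to 427 against 230 to 860 (-1.61 ± 0.16), and the duodenal reductase Cybrd1 was lower (-1.41). The reductases Steap1 (2.14), Steap2 (1.52) and Steap3 (1.14) and the heme transporter Slc48a1 (1.77) were higher. In zinc and copper 14 of 32 were lower and 8 higher (median -0.17, but 0.22 at the same library sum, where 11 were lower and 12 higher). The importers Slc39a6 (2.74), Slc39a8 (1.82) and Slc39a13 (1.71) were higher. The transporters Slc30a10 (-1.47), Slc30a4 (-1.30) and Slc30a5 (-1.11) were lower, and so was the importer Slc39a14 (-0.92).

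Glucose metabolism also differed by isoform. Of 40 glycolysis and sugar kinase genes 21 were lower and 6 higher (median -0.53), and at the same library sum 10 were lower and 9 higher. Hk2 (2.24) and the muscle phosphofructokinase Pfkm (2.04) were higher, whereas the platelet form Pfkp (-1.24) and Hkdc1 (-0.69) were lower. G6pc (-1.80) and Fbp1 (-1.60), of glucose production, and Gapdh (-1.05) were lower. In tight junctions and keratins 15 of 38 were lower (39.5%) and 9 higher (23.7%), with a median of -0.22. Among all genes with a mean of at least 10, 23.5% were lower and 25.8% higher. Lower and higher members numbered 4 and 13 at the same library sum, and 6 and 11 after quantile normalization. Krt7, a keratin of ductal cells, lay at 668 to 3128 against 65.9 to 118 (4.32 ± 0.22). Cldn6 (4.63), Cldn4 (2.09) and Krt18 (1.31) were higher, Cldn1 reached 2.22 to 37.5 and was listed at 0 in all CCK- libraries, and Cldn15 (-0.94), Krt20 (-0.54) and Dsg2 (-0.81) were lower.

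**Figure D5:**
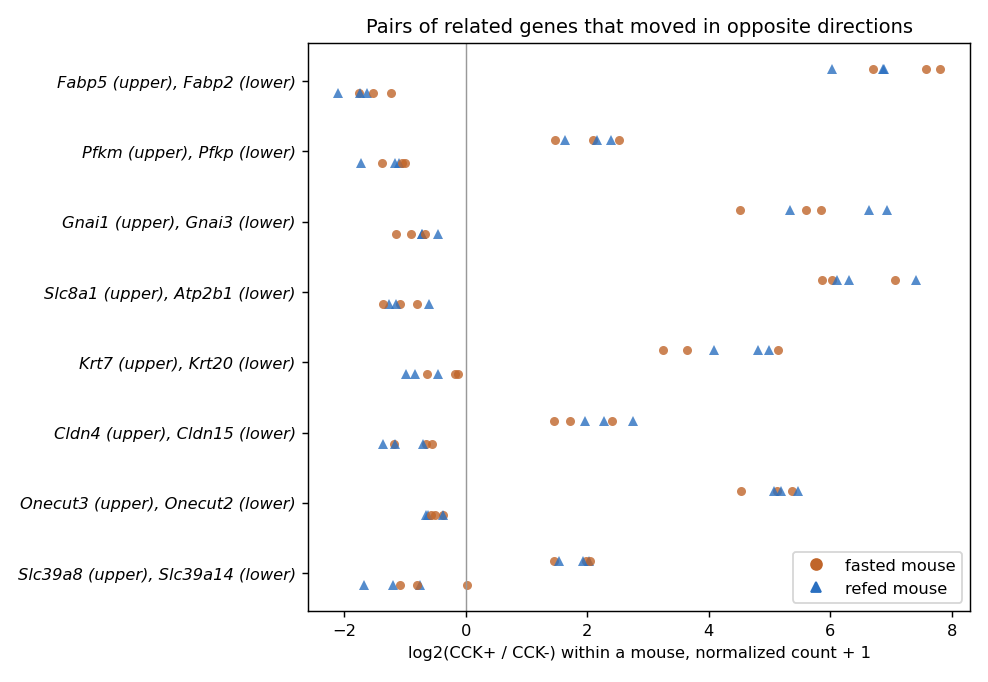
Log2 ratio, CCK+ over CCK-, in each mouse for 8 pairs of related genes, circles fasted and triangles refed, with the first gene of a pair drawn above the second. The first genes lie to the right of 0 and the second to the left in every mouse other than 1 fasted mouse for Slc39a14.

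The pairs plotted were chosen after their values had been seen. They show fatty acid binding by Fabp5 (6.98) against Fabp2 (-1.67), phosphofructokinase Pfkm (2.04) against Pfkp (-1.24), and inhibitory G proteins Gnai1 (5.81) against Gnai3 (-0.77). Calcium extrusion by Slc8a1 (6.46) stood against Atp2b1 (-1.05), the keratin Krt7 (4.32) against Krt20 (-0.54), the claudin Cldn4 (2.09) against Cldn15 (-0.94), Onecut3 (5.12) against Onecut2 (-0.52) and Slc39a8 (1.82) against Slc39a14 (-0.92).

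Genes of proliferation and of the crypt were moderately higher. Of 56 cell cycle genes 30 were higher and 1 lower (median 0.71, mouse medians 0.58 to 0.93). This count depended on scaling, since 12 were higher and 2 lower after quantile normalization. Without mouse B 23 were higher, while the median stayed at 0.71. Leaving out any mouse also lowered the number of higher genes over the whole set tested. Dut (1.78), Uhrf1 (1.63), Foxm1 (1.54) and the replication helicase subunit Mcm5 (1.54) led, and Mki67 was higher by 0.71. Pcna (0.12), Cdk1 (-0.13) and Rrm2 (0.01) were not called, and Cdc45 was lower (-0.73). Mcm5 lay at 38.7 to 93.3 against 4.89 to 42.5, so the fractions overlapped. Among 19 inhibitors of the cycle 7 were higher and 7 lower (median 0.02), but 10 and 2 at the same library sum (median 0.42). The kinase inhibitor Cdkn1c lay at 184 to 279 normalized counts in CCK+ (median 228) and 20.1 to 72.2 in CCK- (2.33 ± 0.18). Gadd45g (1.60) and Btg2 (1.16) were higher, and Ccng2 (-0.90) and Rbl1 (-0.88) were lower. The sum of the crypt and cycling markers was 1.35- to 2.10-fold higher in CCK+, and the lymphocyte marker sum was higher in the same libraries. The part of either in these counts was not tested.

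Of 34 stem cell and Wnt genes 17 were higher and 2 lower (median 0.87). The adhesion receptor Cd44, which lymphocytes also carry, lay at 456 to 742 normalized counts against 48.9 to 132 (3.07 ± 0.16). Mex3a (2.34), Ephb3 (1.78) and Olfm4 (1.30) were higher, and so was Tcf7 (1.45), another gene of T cells. Lgr5, the receptor that defines crypt stem cells, was not called (0.98), and the feedback inhibitor Rnf43 (-0.63) and Fzd5 (-0.41) were lower. Of 36 Notch genes 15 were higher and 4 lower (median 0.34), but 12 and 7 after quantile normalization (median 0.25). The ligand Jag2 lay at 57.9 to 258 against 5.29 to 32.0 (3.81 ± 0.41). Dlk1 (3.70), the fringe glycosyltransferases Mfng (3.48) and Lfng (3.38) and the receptor Notch1 (2.21) were higher, whereas the ligand Dll1 (-0.91) and Hes7 (-0.99) were lower and the target Hes1 was not called (0.26). Mfng and Notch1 are expressed in lymphocytes as well, and their part was not tested.

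Organelle lists whose direction depended on the scaling were those of the endoplasmic reticulum (ER) and the lysosome. Of 57 ER chaperone and unfolded protein response genes 14 were higher (24.6%) and 17 lower (29.8%). These shares were near the 25.8% and 23.5% of all genes with a mean of at least 10. The median was -0.04, but 0.36 at the same library sum, where 26 were higher and 6 lower. Creb3l1 (1.69) and Ppp1r15a (1.46) were higher, Edem1 (-1.22) and P4hb (-1.08) were lower, and the chaperone Hspa5 was lower by 0.36 while Xbp1 was not called (0.02). P4hb lay at 6795 to 10530 normalized counts in CCK+ and 14520 to 20980 in CCK-. Of 49 lysosome genes 13 were higher (26.5%) and 14 lower (28.6%), near the 25.8% and 23.5% of all genes with a mean of at least 10. The median was 0.08, but 0.48 at the same library sum, where 25 were higher and 4 lower, and -0.02 after quantile normalization. The hydrolases Ctsf (2.89), Gaa (1.95), Smpd1 (1.79) and Arsb (1.72) were higher, and Lipa (-1.58) and Ctss (-1.17) were lower.

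Immediate early genes are induced within minutes by cell activity or by tissue handling. Of 43 such genes 24 were higher and 5 lower (median 0.79, mouse medians 0.34 to 1.08). Both fractions had been dissociated and sorted, and the part of handling in these values was not tested. Arc, known from active synapses, lay at 87.4 to 388 normalized counts in CCK+ (median 203) and at 1.11 to 9.27 in CCK- (median 4.05), a difference of 5.41 ± 0.32. The nuclear receptors Nr4a1 (5.24), Nr4a3 (3.90) and Nr4a2 (2.26) and the neuronal factor Npas4 (3.78) were higher. Fos (-0.15), Atf3 (-0.16) and Hspa1a (-0.27) were not called. Dusp2 (4.06), Klf2 (2.57) and the Nr4a genes are also expressed by lymphocytes, whose markers were higher in the same libraries. Their part was not tested. Mcl1 (-0.93) and Ier5 (-0.92) were lower.

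The contrast between the fractions was then compared between states. It differed between refed and fasted mice in 1 gene of 22042 (0.00454%), although 1714 genes (7.78%) had an unadjusted p under 0.05. The call was lost with a pseudocount of 8, with no intensity trend, and on leaving out mouse B, C, D, E or F. The gene was Gvin1, an interferon-inducible GTPase with near-identical copies. It lay at 107 to 384 normalized counts in fasted CCK+, was listed at 0 in all 3 fasted CCK- libraries, and lay at 468 to 499 in refed CCK+ and 159 to 219 in refed CCK-. In the same fit, list medians were nearer 0 in fasted than in refed mice for the surface hydrolases (-0.76 against -1.23), brush border structure (-0.36 against -0.82) and the granule (4.85 against 5.65), but not for the peroxisome (-0.65 against -0.49), and these differences were not tested. The EEC marker sum was lower in each fasted CCK+ library (64450 to 147100) than in each refed one (173900 to 239700), and its part in these medians was not tested. Fitted alone with limma, the 3 fasted mice gave 0 calls (lowest adjusted p = 0.0733, 5443 genes at an unadjusted p under 0.05) and the 3 refed mice gave 2394 higher and 1668 lower genes.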

How the data were processed

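RNA of each fraction was amplified with the Ovation RNA-Seq System V2 and sequenced on an Illumina HiSeq. Per the labels and the study's methods, the authors trimmed reads with Trim Galore (0.6.7), quantified transcripts with Salmon (1.6.0) on mouse GRCm39 and normalized gene counts with DESeq2 size factors, leaving out genes with at most a single count. The deposited values are these normalized counts, used here as a signal, 1 per gene and library. They are not whole, so the reads behind a value are unknown and no count model was used. Amplification and size factors make levels relative. A fold change of a low gene is understated by the added 1.

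The samples were grouped by cell type and treatment labels, and fractions were paired by mouse, since RNA of both came from each animal. The correlation of same-mouse deviations was 0.0773 to 0.124. limma (3.58.1) was fitted to log2(normalized count + 1) with a block for mouse, a fraction effect in each state, an intensity trend and 4 residual degrees of freedom. P-values were adjusted by Benjamini-Hochberg over 22042 genes, of which 2797 had no symbol, and calls were made at 0.05. Symbols came from the file. Alternatives were a pseudocount of 0.5 or 8, a mean of at least 10, a same library sum, median centering, quantile normalization, no block, no trend, each mouse left out, each state alone and 1 shared effect.

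The comparison and its 28 gene lists (1081 distinct genes measured) were chosen with earlier results of these data known. Named genes were the 12 highest and 12 lowest called genes with 1 sign in all 6 mice and a mean of at least 100, and per list up to 4 called members of largest difference, with a mean of at least 20, and up to 2 of the opposite direction. Other members named in a list were picked after their values were seen. Some genes that the rule names are not reported here. Hormones and nutrient receptors were left out of the 12 highest and 12 lowest genes. Cck, Vip, Cd36 and Gnat3, which that exclusion covered, appear only as a check or as members of a gene or marker list. The droplet library was not used here. Promoter windows came from RefSeq (GRCm38.p6), while the files use GRCm39, so no gene coordinates are given. ± is the SE of the fit.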

Additional observations from a re-analysis of the deposited data

Results flagged for a closer look

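In 53 series of 6 mouse log2 ratios (24 genes, Cck and 28 list medians), 2 had 1 mouse set apart from the other 5, and chance alone would do this in about 1 series in 20. Both concern mouse B. Its log2 ratio of Ugt1a2 was -3.93 (other mice -2.08 to -1.17), from 6.07 normalized counts in CCK+ and 107 in CCK-. Its log2 ratio of Clec2e was -1.04 (other mice -2.20 to -1.91), from 3534 and 7278 normalized counts.

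The CCK+ against CCK- difference of Gvin1 was smaller in refed than in fasted mice by -6.55 on the log2 scale (test of the difference itself, limma). No gene was called in that test with a pseudocount of 8, with no trend, or on leaving out mouse B, C, D, E or F. The fold in fasted mice has no defined size, as Gvin1 was listed at 0 in their CCK- libraries.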

How the results depend on the processing

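Of 159 named genes under 17 alternatives, 2 results changed sign, both of Kif21b, which was 0.077 at the same library sum and 0.10 in fasted mice alone. Higher and lower genes numbered 6669 and 1347 at the same library sum, 0 and 0 in fasted mice alone and 2394 and 1668 in refed mice alone. Leaving out 1 mouse gave 3002 to 4098 higher and 2311 to 2967 lower genes. Without the block for mouse there were 4324 and 3107. Genes that differed between states numbered 1, but 0 with a pseudocount of 8, 0 with no trend, 2 after quantile normalization, and 0 to 1 when 1 mouse was left out (1 only without mouse A). List medians that changed sign were, at the same library sum, those of enterocyte transcription factors (0.0014), iron and heme (0.11), zinc and copper (0.22), tight junction and keratin (0.18) and ER chaperones (0.36); in refed mice alone, zinc and copper (0.013), cell cycle inhibitors (-0.027) and ER chaperones (0.027); for the inhibitors also without mouse B or E (range with 1 mouse left out -0.043 to 0.077); and for the lysosome after quantile normalization (-0.015), without mouse A (range with 1 mouse left out -0.0057 to 0.0835) and in fasted mice alone (-0.032). The cause was not tested. Relative to the median of all genes, 24 of 28 list medians kept their sign in 3 other scalings. The depth of the libraries is unknown, which leaves genes of a few normalized counts the least certain.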

Other observations

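The following cell type markers were chosen after their values were seen. Among all genes with a mean of at least 10, 25.8% were higher in CCK+ and 23.5% lower. The goblet and Paneth counts below did not exceed these shares. Of 12 goblet markers 2 were higher and 2 lower in CCK+, and Agr2, a disulfide isomerase of mucus cells, had a median of 2489 normalized counts in CCK+ against 427 in CCK-, whereas Muc2 had 9391 against 13860. Habp2, a plasma protease, was the 1 called member of the 10 Paneth markers. It had 40.4 to 186 normalized counts in CCK+ and 5.97 to 22.3 in CCK-. Lyz1, with medians of 4418 against 2282, was not called (log2 difference 0.34, mouse log2 ratios from -1.34 to 2.69). Kit, a receptor tyrosine kinase among the mast cell markers, had a median of 176 normalized counts in CCK+ against 21.8 in CCK-, a log2 difference of 2.87. The mast cell proteases Mcpt1 (26.8 against 0, log2 difference 4.40) and Mcpt2 (24.4 against 0, log2 difference 4.36) were also called higher, and these 3 were the called members of the 7 measured.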
